A study of Homo sapiens with 7 samples.

Results

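KO4 is a clone of BHT-101 cells in which the labels place premature stop codons in ASH1L after residues 2169 and 2174. BHT-101 is a human anaplastic thyroid cancer line. The clone was compared by RNA sequencing with unedited cells of the same line. KO4 is 1 of the 7 libraries in the series. The others are clone KO1 with a stop after residue 413, clone KO2 with a stop after residue 610 and clone KO3 with a stop after residue 2129, each labelled as carried on both alleles, and 3 biological replicates of wild type (WT) cells. Whether the positions named for KO4 lie on separate alleles is not stated in the labels. All cells were grown in the same serum-containing medium, and every clone is represented by 1 library. RPKM is reads per kilobase of gene per 1000000 reads, so levels below are per length, and they are given on the log2 scale. A gene entered the tests if it exceeded 0 on that scale in KO4 or in 3 or more of the 7 libraries, and 11342 of the 13142 genes in the table did.

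ASH1L is a large histone methyltransferase of the Trithorax group. Its SET domain methylates lysine 36 of histone H3, and it acts with MRG15 in a complex that counters Polycomb silencing at developmental genes. A bromodomain, a PHD finger and a BAH domain follow the SET domain towards the C terminus. Dedifferentiated thyroid carcinomas commonly lose thyroid follicular gene expression and gain mesenchymal features.

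The stretch of the coding sequence named in the KO4 and KO3 labels is shown to place the stops. It is read 5′ to 3′ from the transcript ENST00000368346.7 of GENCODE release 29 (hg38, chr1:155370797-155370958, minus strand, exon 11), and it runs from codon 2125 to codon 2178 of 2969. Capitals mark, in order, codons 2129, 2169 and 2174.
ASH1L reference codons: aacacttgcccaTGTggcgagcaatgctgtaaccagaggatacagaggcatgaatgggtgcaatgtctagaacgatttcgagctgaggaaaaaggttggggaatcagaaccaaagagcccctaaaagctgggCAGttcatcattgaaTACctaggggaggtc
The stops of KO4 lie 73.1% and 73.2% of the way along this protein, and that of KO3 lies 71.7% along it. KO1 and KO2 have theirs at 13.9% and 20.5%, in exon 3. In the second full-length transcript, ENST00000392403.7 with 2964 codons, residue 2169 is encoded by the codon at chr1:155370809-155370811. That is the codon of residue 2174 in the longer transcript. The labels do not say which numbering was used. The sequence is the reference, not a read-out of the clone.

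ASH1L (ENSG00000116539, chr1:155335268-155562807, minus strand, hg38) was examined first. Its RNA was higher in KO4 than in WT and lower in the other clones. Its level was 3.74 log2 RPKM in KO4, against 3.34, 3.30 and 3.22 in the 3 WT libraries. The other clones had 2.69 (KO1), 2.54 (KO2) and 2.42 (KO3). KO4 lay above every WT library, and each of the other clones lay below every WT library. The difference between KO4 and WT was 0.45 ± 0.11 log2 units (SE, 1 library against 3), a ratio of 1.37, with an adjusted p of 0.0239 in limma. It is smaller than the 2-fold minimum used for calls, and the adjusted p was 0.106 when WT2 was left out. The genes within 5 Mb of ASH1L had a median difference of 0.18, and after that median was subtracted the ASH1L difference was 0.28 (adjusted p = 0.12). RNA level does not measure the protein, which was not assayed here.

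KO4 differed widely from WT at the level of single genes when the spread was taken from the WT replicates. A gene was called when its adjusted p in limma was under 0.05 and its log2 difference was at least 1. By that rule 422 genes were higher in KO4, 3.72% of those tested, and 504 were lower, 4.44%, which together made 8.16%. The same rule gave 4.26% higher and 9.5% lower in KO1, 4.24% and 3.8% in KO2, and 2.72% and 5.82% in KO3, each against the same WT libraries. Of the 422 genes, 120 were tested only because KO4 itself passed the expression filter, a clause that favours higher calls. Without that clause 302 genes were called higher and 503 lower. The median difference over all tested genes was 0.00. KO4 correlated with the WT libraries across genes at r = 0.912 to 0.917, while WT libraries correlated with each other at 0.989 to 0.995. Genes share a library and are not independent replicates. With 1 KO4 library, these calls assume that a clone varies as little as WT replicates do.

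The spread among clones was larger than that among WT replicates, and it decides how firmly any single gene can be read. The median SD over tested genes was 0.33 log2 units among KO1, KO2 and KO3, and 0.10 among WT. A further fit held all 7 libraries, with separate means for KO4, WT and the other clones. Its spread came from within WT and within KO1 to KO3, since a single KO4 library adds none. It is called the spread of all 7 libraries here and below. When the spread of all 7 libraries was used, 0 genes passed in KO4 against WT. The lowest adjusted p was then 0.117, and 830 genes had an unadjusted p under 0.05. Set directly against KO1, KO2 and KO3, KO4 had 0 genes past the same rule. At an unadjusted p under 0.05, 68 genes were higher than in the other clones (0.6%) and 37 lower (0.326%). "Rose" and "fell" below refer to the calls against the WT spread. Nothing below is shown to be particular to KO4 or to the position of its stops, and no clone with intact ASH1L was analysed.

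**Figure D1:**
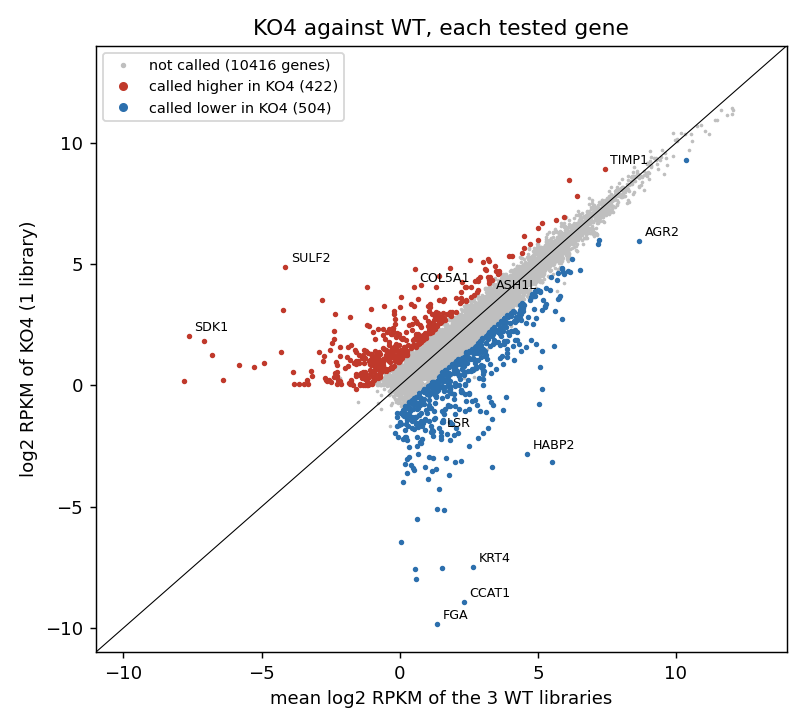
Each point is 1 of the 11342 tested genes, with its level in KO4 (log2 RPKM, vertical axis) against its mean in the 3 WT libraries (horizontal axis). The 422 genes called higher are red, the 504 called lower are blue, and the line marks equal levels. SULF2 and SDK1 lie far above the line, and FGA, CCAT1 and KRT4 far below it.

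Of the 15 largest gains, 14 had a WT mean below -1 log2 RPKM. SDK1, FOXF1, SLITRK6, SLC2A3, ANTXR1 and LTBP2 were tested only because KO4 itself passed the filter, which admits genes that are low in nearly all other libraries. For genes below -1 log2 RPKM in either group the difference depends on the authors' prior count, so levels are given and no fold. SULF2, an extracellular sulfatase that edits heparan sulfate (chr20:47656348-47786616, minus strand), was at 4.87 in KO4, against -4.21, -3.75 and -4.44 in WT. It was also above every WT library in KO1 (2.45) and KO2 (3.44), but not in KO3 (-5.16). SPOCK1, a secreted testican proteoglycan, was at 3.52 in KO4, against -2.47, -3.05 and -2.94 in WT. SLITRK6, a neuronal membrane protein, was at 3.10 in KO4, against -5.07, -3.90 and -3.74 in WT. Only genes with KO4 outside the WT range were eligible, so the separation from WT follows from the choice of genes.

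Others of the 15 largest gains had lower levels. SDK1, an immunoglobulin-family adhesion protein, was at 2.03 in KO4, against -9.10, -6.92 and -6.85 in WT. FOXF1, a forkhead factor of mesoderm, was at 1.26 in KO4, against -7.32, -5.70 and -7.38 in WT. PRICKLE1, a planar cell polarity protein, was at 1.37 in KO4, against -4.15, -4.01 and -4.68 in WT. The remaining members include PMEPA1, a feedback inhibitor of TGF-β signalling, SLC2A3, a neuronal-type glucose transporter, ANTXR1, an anthrax toxin receptor, MRAS, a RAS-family GTPase, and CADM1, an adhesion molecule. Those were between 1.45 and 3.15 in KO4 and at most -0.93 in any WT library. GALNT12, which starts O-linked glycosylation of mucins, was at 1.38 in KO4, and LTBP2, a latent TGF-β binding protein, at 1.91. SPANXB1, a cancer-testis gene with near-identical copies whose reads may be shared, was at 4.80 in KO4, against -0.01, 0.79 and 0.93 in WT. It alone of the 15 was above -1 in every WT library, and its ratio was 18.8. All 15 also lay above every WT library in KO1, as did 10 in KO2 and 11 in KO3. The share of all tested genes that did so in each clone was not taken, so nothing is read from these counts.

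The 15 largest losses included the 3 fibrinogen genes, plasma proteins, a keratin and a noncoding RNA. HABP2, a plasma serine protease (chr10:113550837-113589602, plus strand), was at -2.83 in KO4, against 4.66, 4.58 and 4.57 in WT. SPTSSB, a subunit that stimulates serine palmitoyltransferase, was at -3.17 in KO4, against 5.82, 5.65 and 5.07 in WT. CCAT1, a long noncoding RNA named for its expression in colon cancer, was at -8.95 in KO4, against 2.33, 2.30 and 2.38 in WT. KRT4, a mucosal keratin, was at -7.48 in KO4, against 2.77, 2.65 and 2.53 in WT. ITIH2, a hyaluronan-binding plasma protein, was at -7.51 in KO4, against 1.65, 1.42 and 1.52 in WT. In each of these 5 genes KO4 was below every WT library, which the choice of genes required.

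CLDN2, which forms cation pores in tight junctions, ALDH1A1, a retinaldehyde dehydrogenase, LPAR1, a lysophosphatidic acid receptor, KIF12, a kinesin, VSIG1, a junctional protein of gastric epithelium, MUC5B, a gel-forming mucin, and TSSC2, a pseudogene, completed the group with the fibrinogen genes. Their WT levels lay between 0.98 and 2.99 and their KO4 levels between -5.14 and -2.16. All 15 of the largest losses also lay below every WT library in KO1, as did 14 in KO3 and 9 in KO2. For these counts too, the share over all tested genes was not taken, and nothing is read from them. ALDH1A1 was at 5.61 in KO2, above all WT libraries, and at -6.85 in KO1 and -2.15 in KO3.

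**Figure D2:**
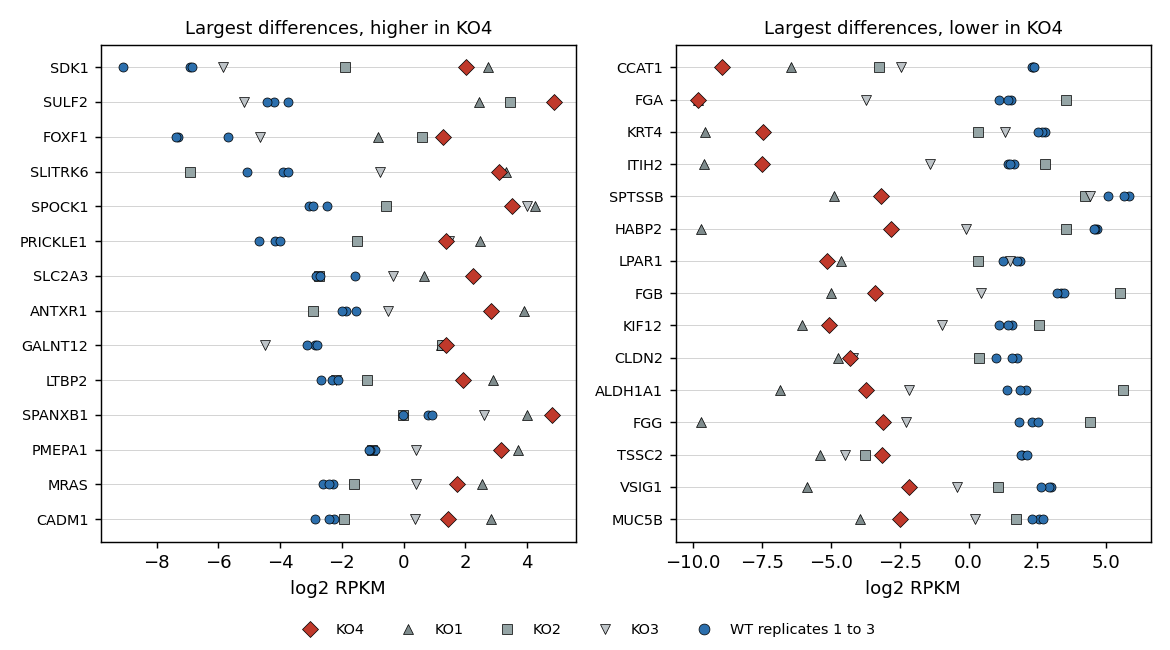
Levels (log2 RPKM) in every library of 14 genes higher and 15 genes lower in KO4, from the 15 largest differences in each direction among called genes with a level of at least 1 in the higher group. Red diamonds are KO4, grey symbols are KO1 to KO3 and blue circles the 3 WT replicates. That KO4 lies outside the WT range in all 29 genes is fixed by the choice of genes. KO2 lies below every WT library in 9 of the 15 genes on the right.

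Among abundant RNAs, TIMP1 and IGFBP4 were higher. TIMP1, an inhibitor of matrix metalloproteinases, was at 8.91 in KO4, against 7.52, 7.35 and 7.40 in WT, a ratio of 2.81. IGFBP4, which binds insulin-like growth factors, was at 7.80 in KO4, against 6.44, 6.42 and 6.44 in WT, a ratio of 2.59. AGR2, a disulfide isomerase needed for mucin secretion, was at 5.95 in KO4, against 8.72, 8.71 and 8.59 in WT, 6.61-fold lower. TRNP1, a nuclear protein that regulates progenitor proliferation, S100P, a calcium-binding protein of carcinomas, and MT-ND1, a mitochondrially encoded subunit of complex I, were between 2.10 and 2.56-fold lower. S100P was at 5.99 in KO4, against 6.72, 7.15 and 7.77 in WT, with an adjusted p of 0.0455. It was not called without WT2 (adjusted p = 0.103) or without WT3 (a difference of -0.95), nor after quantile normalization, with library medians set equal, without the variance trend or with position centring, which subtracts the median difference of neighbouring genes on the chromosome (adjusted p = 0.0506, 0.0529, 0.0718 and 0.0598). MT-ND1 was not called without WT1 (-0.89) or after quantile normalization (-0.99), and its difference was -0.50 once the median of 16 mitochondrial neighbours, -0.58, was subtracted.

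Genes of hepatic and endodermal secretion fell most as a group. Of 23 tested, 16 fell and 1 rose, with a median difference of -1.85 against 0.00 over all genes. The coagulation genes F2 (prothrombin) and F5 fell, as did the complement gene C5, and APOC1, an apolipoprotein. C5 was at -0.99 in KO4, against 2.34, 2.48 and 2.67 in WT, 11.2-fold lower. F5 was at 0.83 in KO4, against 2.94, 2.97 and 2.88 in WT, 4.28-fold lower. CFI, a protease that cleaves complement C3b, was the member that rose, with 1.45 in KO4 against 0.06, 0.01 and 0.09 in WT.

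Transcription factors of this programme fell too. HNF4A, a nuclear receptor of liver and gut, was at -0.04 in KO4, against 1.64, 1.52 and 1.47 in WT, 2.99-fold lower. HNF4G was 2.41-fold lower in KO4. FOXA3 fell to -1.62 in KO4, against -0.38, 0.33 and 0.02 in WT. The median of the list was -3.65 in KO1, 1.26 in KO2 and -1.73 in KO3, so KO4 lay nearest KO3.

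The 3 fibrinogen genes, which encode the chains of the clotting protein and lie together on chromosome 4, moved together. FGA was at -9.84 in KO4, against 1.09, 1.55 and 1.42 in WT. FGB was at -3.38 in KO4, against 3.35, 3.45 and 3.20 in WT. FGG was at -3.11 in KO4, against 1.83, 2.30 and 2.53 in WT. In KO2 all 3 were above WT, at 3.54, 5.51 and 4.42 log2 RPKM.

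Secretory and trefoil genes fell in 6 of 15 cases and rose in 1, with a median of -0.78. The trefoil peptides protect mucosal surfaces. TFF1 was at 2.74 in KO4, against 6.10, 5.82 and 5.71 in WT, 8.82-fold lower. TFF3 was 7.32-fold lower in KO4 and TFF2 4.48-fold lower. SPDEF, a transcription factor of goblet cells, was at 1.63 in KO4, against 4.36, 4.06 and 3.93 in WT. AGR2 was at 5.95 and SPDEF at 1.63 in KO4, whereas in KO1 AGR2 was at -1.79 and SPDEF at -6.27. The mucin gene MUC5B was low in both clones, at -2.48 in KO4 and -3.94 in KO1.

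Epithelial junction and keratin genes fell in 11 of 35 cases, and 1, KRT17, rose. The median was -0.54. CDH1, which encodes E-cadherin, was at -2.83 in KO4, against 0.75, 0.78 and 0.47 in WT. ESRP2, an epithelial splicing regulator, was at 0.61 in KO4, against 3.08, 3.02 and 2.93 in WT, 5.30-fold lower. ELF3 and GRHL1, epithelial transcription factors, were 2.54-fold and 2.84-fold lower in KO4. DSP, which anchors desmosomes to keratin, EPCAM, an epithelial adhesion molecule, and CLDN1, a tight junction claudin, were 2.12 to 2.15-fold lower.

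The abundant simple-epithelium keratins KRT8, KRT18, KRT19 and KRT7 were at 5.55 to 7.32 in KO4, against 6.22 to 7.78 in WT. None of those 4 passed the fold minimum, but KRT8 (-0.51), KRT18 (-0.57) and KRT7 (-0.85) were lower in KO4 at adjusted p-values of 0.0231, 0.0109 and 0.00979. KRT17, a basal keratin, was at 1.46 in KO4, against -1.87, -1.46 and -1.48 in WT. Summed over the 6 epithelial markers, the level was 454 RPKM in KO4 and 680, 631 and 562 RPKM in WT. It was 338 in KO1, 651 in KO2 and 287 in KO3. Of 14 genes of epithelial defence, 3 fell and 1 rose. DEFB1, a defensin, was at 1.49 in KO4, against 3.50, 3.93 and 4.27 in WT, and SERPINB5, the serpin maspin, was 2.68-fold higher in KO4.

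Mesenchymal switch genes rose in 5 of 15 cases and fell in none, with a median of 0.62. The median was 0.37 in KO1, -0.95 in KO2 and -0.21 in KO3. MMP2, a gelatinase of stromal cells, was at 5.17 in KO4, against 2.33, 2.64 and 2.66 in WT, a ratio of 6.16. SNAI2 and TWIST1, which repress E-cadherin, had ratios of 4.33 and 2.68. SNAI2 was at 3.52 in KO4, against 1.77, 1.36 and 1.09 in WT. SPARC, a matricellular glycoprotein, was 2.44-fold higher in KO4, and CDH11, a mesenchymal cadherin, 4.04-fold higher.

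Collagen genes rose in 6 of 15 cases and fell in 2, with a median of 0.75. COL5A1, a chain of fibril-nucleating collagen, was at 4.05 in KO4, against 0.58, 0.54 and 0.39 in WT, a ratio of 11.7. The basement membrane chains COL4A1, COL4A2 and COL4A6 had ratios of 2.47, 2.78 and 2.16, and COL7A1, of anchoring fibrils, had a ratio of 3.88. COL6A3, a microfibrillar chain, was at 2.39 in KO4, against 0.67, 0.82 and 0.86 in WT. COL1A1 fell to 0.48 in KO4, against 2.14, 2.02 and 2.21 in WT, and COL27A1 was 2.76-fold lower. The list therefore did not move in 1 direction.

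Matrix proteases and their inhibitors rose in 8 of 21 cases and fell in 2, with a median of 0.85. Besides TIMP1 and MMP2, the plasminogen activator PLAT was at 4.78 in KO4, against 2.88, 3.15 and 3.25 in WT. ADAM19, a membrane metalloproteinase, was at 2.46 in KO4, against -1.21, -1.15 and -1.03 in WT. PLAUR, the urokinase receptor, and the inhibitors TIMP2 and TIMP4 were 2.14, 2.77 and 2.29-fold higher in KO4. ADAMTS1, an aggrecan-cleaving protease, and LOXL1, which crosslinks elastin, fell.

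Laminins, integrins and matrix glycoproteins rose in 8 of 34 cases and fell in 3. Of the 8, 5 (ITGA4, ITGA11, NID1, NID2 and LTBP2) were tested only through the KO4 level, which favours a gain. Among the other 29 genes 3 rose and 3 fell. ITGA3, a laminin-binding integrin chain, was at 6.83 in KO4, against 5.64, 5.55 and 5.77 in WT, a ratio of 2.25. ITGA4, a chain of leukocyte-type integrins, had a ratio of 7.05, and ITGA11, which binds collagen, was at 0.94 in KO4, against -4.55, -5.01 and -5.23 in WT. LAMA3, LAMA4 and ITGB4 fell, and the products of LAMA3 and ITGB4 belong to hemidesmosomes of epithelia. Of 30 proteoglycan and heparan sulfate genes, 4 rose and 4 fell. SDC1, an epithelial syndecan, was at 1.33 in KO4, against 3.98, 3.87 and 3.76 in WT, 5.80-fold lower, while SDC3 was 2.17-fold higher. SRGN, an intracellular proteoglycan, was 6.57-fold higher in KO4.

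Chemokine, cytokine and NF-kB output genes fell in 15 of 30 cases and rose in 2, with a median of -1.11. CCL20, a chemokine for lymphocytes and dendritic cells, was at -3.35 in KO4, against 0.53, 0.75 and 1.5 in WT. CSF2, which encodes GM-CSF, was at -1.77 in KO4, against 2.27, 1.82 and 2.04 in WT. VCAM1, an adhesion molecule for leukocytes, was at 0.61 in KO4, against 2.85, 3.12 and 3.22 in WT, 5.46-fold lower. The NF-kB feedback genes NFKBIA, NFKBIZ and BIRC3 were 2.32, 3.45 and 2.82-fold lower in KO4. IL6 and IL18 were 2.46 and 2.28-fold lower, and IL6 was not called without WT2 (adjusted p = 0.0621). IL11, a cytokine of the IL6 family, and TNFSF10, which encodes TRAIL, rose with ratios of 4.24 and 4.75. The median was -1.11 in KO1 too, against 0.17 in KO2 and -0.19 in KO3.

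Interferon-stimulated genes rose in 8 of 48 cases and fell in 2, with a median of 0.39. CMPK2 was tested only through the KO4 level, and after position centring 5 rose and 1 fell. TRIM22, an antiviral ubiquitin ligase, was at 0.97 in KO4, against -2.08, -2.12 and -2.73 in WT. DDX58, the RNA sensor RIG-I, DDX60, CMPK2, UBE2L6, HERC6, RSAD2 and IFI6 had ratios of 2.01 to 2.63. BST2, which tethers budding virions, was at 4.69 in KO4, against 6.09, 6.08 and 6.34 in WT, and OAS1 was 2.13-fold lower. Without WT1, 4 members rose, since the differences of IFI6, RSAD2, DDX58 and UBE2L6 were then 0.88 to 0.98, and RSAD2 had an adjusted p of 0.0671 without WT2. After position centring 5 members rose and 1 fell. None of 18 tested genes of MHC class I presentation passed the rule in either direction. The median difference of these 18 genes was 0.19, with 15 above 0 and 3 below. Missing the 2-fold rule therefore does not show that they were unchanged. TAPBPL, a peptide editor, was at 4.60 in KO4 and 3.72, 3.76 and 3.97 in WT.

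In the TGF-β and BMP pathway 5 of 33 genes rose, among them LTBP2, which was tested only through the KO4 level, and 3 fell. The median was -0.05. BMP4, a ligand, was at 3.34 in KO4, against 1.20, 1.28 and 0.85 in WT, a ratio of 4.68. BMP2, another ligand, fell to 2.77 in KO4, against 4.57, 4.37 and 4.15 in WT. TGFBR1, the signalling type I receptor, was 2.68-fold higher in KO4, whereas the co-receptor TGFBR3 and the BMP receptor BMPR1B were 2.24 and 3.47-fold lower. FSTL3, an activin antagonist, was 3.29-fold higher.

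Receptor tyrosine kinases fell in 5 of 21 cases and rose in 2, of which EPHA4 was tested only through the KO4 level. PDGFRA, a receptor of stromal cells, was at -1.75 in KO4, against 3.09, 3.22 and 3.33 in WT. ERBB3, a partner of other ERBB receptors, was at -1.17 in KO4, against 1.88, 1.96 and 2.14 in WT. Among fibroblast growth factor receptors, FGFR4 and FGFR3 were 6.67 and 3.86-fold lower and FGFR1 was 2.71-fold higher in KO4. EPHA4, an ephrin receptor, rose to 0.90 in KO4, against -1.55, -1.57 and -1.59 in WT. It was also the only called gene among 24 MAPK outputs and feedback genes.

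In the insulin-like growth factor axis 5 of 16 genes rose and 1 fell. IGFBP7, a secreted binding protein, was at 1.02 in KO4, against -3.15, -2.66 and -2.51 in WT. IGFBP3, the protease PAPPA and the protease HTRA1 had ratios of 3.56, 4.43 and 2.34. IGFBP1, a hepatic binding protein, was at 2.06 in KO4, against 3.60, 3.89 and 4.34 in WT. In the Hedgehog list GLI3, a transcription factor, was at 1.44 in KO4, against -1.06, -1.44 and -1.20 in WT, and the ligand SHH fell. FZD2, FZD5, CELSR3 and PRICKLE1 were the called genes of 24 in the WNT and planar polarity list, and of these FZD5 fell.

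Neuronal guidance and adhesion genes moved in both directions. Of 39 tested, 12 rose and 9 fell, and the median was 0.27. SLIT2, ROBO4, SLITRK1 and SLITRK6, all 4 among the 12, were tested only through the KO4 level, which favours a gain. Among the other 35 genes 8 rose and 9 fell, with a median of 0.16. Without WT2 the number higher of the 39 was 9. SEMA3A, a repulsive cue, and its receptor family member NRP2 rose. SEMA3A was at 1.40 in KO4, against -1.29, -1.42 and -2.06 in WT. NRP2 was at 1.46 in KO4, against -1.28, -1.24 and -1.33 in WT. SEMA3F, another secreted semaphorin, was at -0.64 in KO4, against 2.51, 2.54 and 2.77 in WT, 9.48-fold lower. TENM3, a teneurin, had a ratio of 5.56.

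Of 8 tested protocadherins 5 rose and 1 fell, with a median of 1.13. Of the 5, PCDHGA10 was tested only through the KO4 level, and 4 of the 8 rose after position centring. PCDH1 was at 5.08 in KO4, against 3.07, 2.99 and 2.99 in WT, a ratio of 4.20. PCDHGC3, PCDHGA10, PCDHGB4 and PCDHGB5 had ratios of 4.02, 3.35, 2.22 and 2.16. These last 4 belong to 1 gene cluster with shared 3′ exons, so how reads were divided among them is uncertain. PCDH7 fell, at 0.50 in KO4 against 3.61, 3.29 and 3.03 in WT.

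Genes of stress responses fell where they moved. In the list of 41 ATF4 and unfolded protein response genes 5 fell and none rose, with a median of -0.73. This list also spread among the WT libraries, with medians of -0.39, -0.01 and 0.44 in WT1, WT2 and WT3. TRIB3, a pseudokinase of the ATF4 response, was at 4.74 in KO4, against 5.86, 6.53 and 7.24 in WT. XBP1 and HERPUD1 were 2.12 and 2.28-fold lower in KO4. The count was 18 lower without WT1 and 3 without WT2, where the adjusted p was 0.0794 for TRIB3 and 0.0544 for HERPUD1. Without WT3 the XBP1 difference was -0.96. After position centring 4 fell. Of 30 NRF2 targets 6 fell. AKR1B10, an aldo-keto reductase, was at 1.61 in KO4, against 5.69, 5.71 and 5.31 in WT, 15.6-fold lower. AKR1C3, the conjugate exporters ABCC2 and ABCC3, EPHX1 and UGDH were 2.36 to 3.62-fold lower.

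Several programmes tied to ASH1L or to growth had no called member. That held for 30 genes of H3K36 methylation, ASH1L partners and Trithorax, with a median of -0.06, for 53 DNA replication genes (0.10), for 58 G2 and M phase genes (0.20) and for 73 nuclear subunits of oxidative phosphorylation (-0.17). It also held for 15 NOTCH genes, 18 histone genes and 21 genes of the CDKN2 and RB axis. Of all tested genes 8.16% were called, so short lists such as these can have no call without differing from other genes. Without WT1, 2 NOTCH genes, 1 replication gene and 1 gene of the RB axis were called. Without WT2, 1 NOTCH gene and 1 histone gene were called, and without WT3, 2 histone genes and 1 MHC class I gene. Among the H3K36 genes the largest evidence was for NSD1, another H3K36 methyltransferase, at 3.40 in KO4 and 2.91, 2.89 and 2.88 in WT, a ratio of 1.42. Without the fold minimum 4 of those 30 genes passed in each direction, near the shares of all tested genes, 11.5% higher and 14.5% lower. Of 31 Polycomb genes 1 rose, CBX2, a subunit that reads methylated histone H3, with 3.66 in KO4 against 2.46, 2.65 and 2.62 in WT. Without WT1 or without WT2, 2 Polycomb genes were called higher. Missing the 2-fold rule does not show that these genes were equal.

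HOX and cofactor genes split, with 2 of 14 higher and 2 lower. Of the 2 higher, 1 was tested only through the KO4 level. HOXB9 was at 0.79 in KO4, against 2.5, 2.86 and 3.67 in WT, and HOXB8 also fell. Among 31 nucleoporin genes NUP210 was the called gene, with 5.20 in KO4 against 3.16, 3.14 and 3.32 in WT. SLC1A1, a glutamate carrier, and SLC46A1, the proton-coupled folate transporter, had ratios of 8.54 and 4.39. SLC6A15, a carrier of neutral amino acids, was at -7.55 in KO4, against 0.19, 0.59 and 0.91 in WT, and at most -6.68 in the other clones. Of the 37 amino acid carrier and folate genes 2 rose and 3 fell, and 8 fell without WT1.

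The remaining lists are given by their counts, to be read against the 8.16% of all tested genes called in either direction. YAP and TEAD targets had 1 of 22 higher and 2 lower, and ANKRD1, a muscle-type ankyrin repeat protein, was at 3.29 in KO4, against 5.62, 5.30 and 4.87 in WT. Of 38 genes of cholesterol and fatty acid synthesis 2 fell, among them FADS2, a fatty acid desaturase, by 2.38-fold. Glycolysis and hypoxia genes had 1 of 39 higher, SLC2A3, which was tested only through the KO4 level, and 2 lower, the carbonic anhydrase CA12 and the kinase PDK1. Of 79 cytosolic ribosomal protein genes 1 fell, RPL39, and it was not called after position centring (-0.72). Among 30 p53 targets 2 rose, the death receptor FAS and EDA2R, and 2 fell, BTG2 and TP53I3. FAS had an adjusted p of 0.0593 without WT2, and 4 fell without WT1. After position centring neither BTG2 nor TP53I3 was called. Imprinted genes had 2 of 17 higher, both tested only through the KO4 level, and among the other 15 none was called. They were PEG10, at 0.62 in KO4, against -0.81, -1.20 and -1.16 in WT, and DIRAS3, at 0.77 in KO4, against -6.48, -4.86 and -4.48 in WT. Of 9 genes of the MYC and PVT1 locus CCAT1 was the called gene, and 2 fell without WT1. In the thyroid differentiation list TFF3 alone of 4 tested genes was called.

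**Figure D3:**
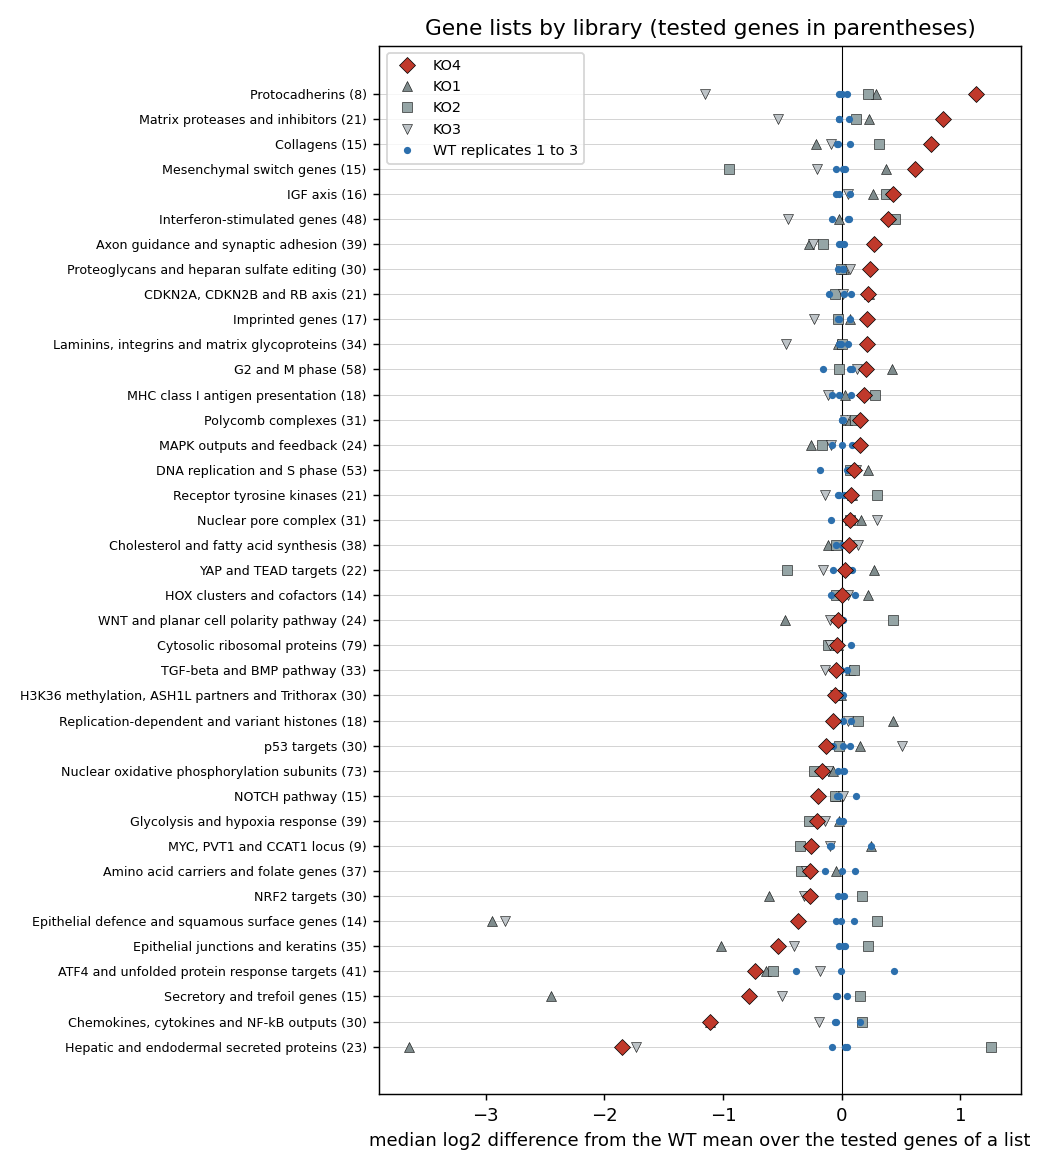
Median log2 difference from the WT mean over the tested genes of each list with at least 8 of them, by library. Red diamonds are KO4, grey symbols the other clones and blue circles the WT replicates. KO4 lies highest for protocadherins (1.13) and lowest for hepatic and endodermal secreted proteins (-1.85), and KO2 lies on the opposite side of 0 for the hepatic list.

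Defining markers of thyroid follicular cells were few in the table. Of 8 listed, 2 have rows. PAX8, a thyroid and kidney lineage factor, was at -3.21 in KO4, against -2.97, -2.63 and -2.23 in WT. HHEX was at 0.77 in KO4, against 0.85, 1.21 and 0.78 in WT, and did not pass the test. The 2 listed leukocyte markers in the table summed to 2.99 RPKM in KO4 and 9.09, 10.6 and 11.9 RPKM in WT. Their sums were lower still in KO1, KO2 and KO3, at 0.613, 1.41 and 0.479 RPKM. CD3D was 13.1-fold lower in KO4 and CD14 2.32-fold higher, but CD14 was tested only through the KO4 level. CD14 was not called without WT2 (adjusted p = 0.116) or after position centring. The 3 fibroblast markers COL1A1, LUM and PDGFRA summed to 34.1 RPKM in KO4 and 53.7, 55.1 and 51.2 RPKM in WT. Their sums were 20.4 in KO1, 31.7 in KO2 and 70.1 in KO3. PECAM1, the endothelial marker in the table, was at -0.52 in KO4 and between -1.86 and -1.62 in WT. In bulk RNA, fewer cells of a kind and less RNA per cell cannot be told apart, and whether a mixture of cells contributed to the differences was not tested.

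Some changes in KO4 were not called in the same direction in any other clone. They are described here as values, since the direct test of KO4 against the other clones called 0 genes. A gene was counted when KO4 also lay at least 1 log2 unit beyond all 6 other libraries. In all, 24 genes were higher by this rule (0.212% of those tested) and 15 lower (0.132%). Of the 24, 11 were tested only through the KO4 level. At an unadjusted p under 0.05 against the other clones there were 13 of the 24 and 11 of the 15, and the rule itself favours such values.

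AIM2, a sensor of cytosolic DNA (chr1:159062484-159147096, minus strand), had the widest gap above the other libraries. It was at 2.95 in KO4, against -0.55, -1.17 and -1.21 in KO1, KO2 and KO3, and -0.39, -0.19 and -0.08 in WT. AIM2, SPN, SLIT2 and HAVCR2 were tested only through the KO4 level. LAPTM5, a lysosomal membrane protein, was at 6.17 in KO4, against 3.37, 3.74 and 4.17 in the other clones and 4.46, 4.49 and 4.57 in WT. SPN, the sialophorin CD43, was at 2.33 in KO4, and at most 0.01 in any other library. HAVCR2, the immune receptor TIM-3, was at 1.15 in KO4, and at most -0.73 elsewhere.

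PLAT was also named above among the matrix proteases and inhibitors. It was at 4.78 in KO4, against 2.03, 0.67 and 0.31 in the other clones and 2.88, 3.15 and 3.25 in WT. CDH11 was at 4.26 in KO4, against -3.18, 2.54 and 0.82 in the other clones. COL6A3 was at 2.39 in KO4, and at most 0.90 elsewhere. DES, the muscle filament desmin, was at 2.49 in KO4, against -3.19, -0.15 and -1.94 in the other clones and 0.08, 0.40 and 0.55 in WT. SLC12A8, a cation-chloride cotransporter family member, was at 4.07 in KO4 and between 1.98 and 2.38 elsewhere. SLIT2, an axon guidance ligand, NEDD9, a focal adhesion scaffold, and LINC00330, a noncoding RNA, completed that group.

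The lower genes included LSR, ESRP2 and CLDN1 of epithelial cells. A fall of the epithelial junction and keratin list was not particular to KO4. Its median was -0.54 in KO4, -1.02 in KO1, 0.22 in KO2 and -0.40 in KO3. LSR, a receptor of tricellular junctions (chr19:35248330-35267964, plus strand), was at -1.92 in KO4, against 3.96, 1.81 and 3.60 in KO1, KO2 and KO3, and 1.73, 1.42 and 1.37 in WT. ESRP2 was at 0.61 in KO4, against 2.12, 3.07 and 3.29 in the other clones and 3.08, 3.02 and 2.93 in WT. In KO1 it was below every WT library too. CLDN1 was at 1.40 in KO4, against 3.86, 2.75 and 3.17 in the other clones and 2.45, 2.45 and 2.63 in WT. RTKN was at -0.25 in KO4, against 1.98, 1.71 and 2.94 in the other clones and 2.22, 2.11 and 2.32 in WT. CXCL5, a neutrophil chemokine, was at 1.43 in KO4, against 3.28, 3.21 and 3.16 in the other clones and 2.87, 2.97 and 2.77 in WT. TNFRSF1B, a TNF receptor, CDH12, a cadherin, and C4orf19 were the other named members. The E-box letters CACCTG or CAGGTG, a motif chosen after the values had been seen, were in neither the LSR nor the CLDN1 promoter window (250 bases before to 50 after the start, RefSeq, GRCh38.p14). They were in 20.6% of 27305 such windows, and in 17.1% of those of tested genes. Most windows lack these letters, so nothing is read from their absence here.

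**Figure D4:**
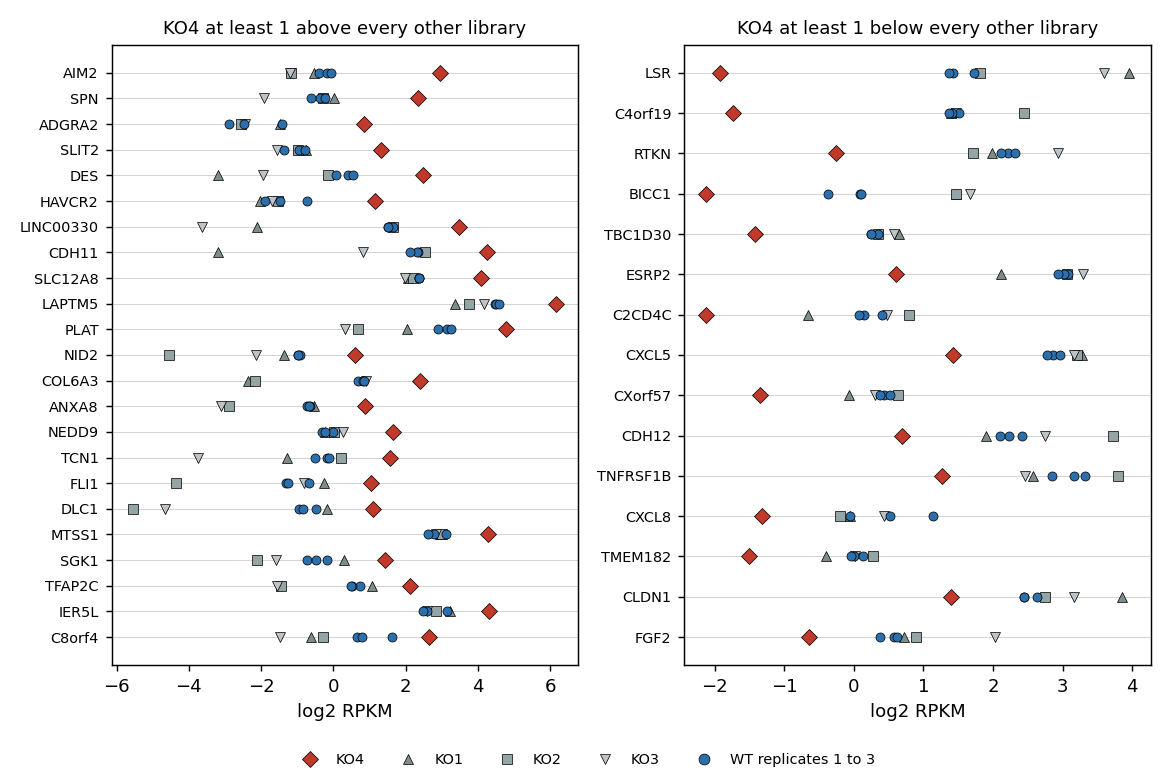
Levels (log2 RPKM) in every library of the genes with symbols in which KO4 lay at least 1 log2 unit above (left, 23 genes) or below (right, 15 genes) all 6 other libraries and no other clone was called in that direction. Red diamonds are KO4, grey symbols KO1 to KO3 and blue circles the WT replicates. The separation of KO4 is fixed by the choice of genes, and the plot shows its size and the spread of the others.

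Differences in KO4 also followed chromosome position. Medians of the difference from WT were taken in 213 windows of 10 Mb with at least 20 tested genes. In KO4 they ran from -0.81 to 0.45, against -0.11 to 0.07 in the WT libraries. Of the windows, 9 were above 0.3 and 18 below -0.3. The longest low stretch was on chromosome 11 from 90 to 130 Mb, where 140 genes had a median of -0.73 in KO4 and 28 fell. The same stretch had medians of -0.64, -0.65 and -0.65 in KO1, KO2 and KO3. The succinate dehydrogenase gene SDHD lies on chromosome 11 and was 1.89-fold lower in KO4, under the fold minimum.

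Chromosome 9 was higher, with a median of 0.28 over 439 genes, as it was in KO1 (0.47) and KO2 (0.38). Chromosome 18 was lower, with a median of -0.30 in KO4, -0.30 in KO2 and -0.27 in KO3, against 0.19 in KO1. Chromosome 21 had a median of -0.26, with the trefoil genes among the 8 of its 104 genes that fell. Of 571 genes in the low windows 12.4% fell, against 4.44% of all tested genes, and of 403 in the high windows 5.71% rose, against 3.72%. The windows were chosen on these same differences, so nothing is read from those shares. DNA copy number was not measured. After each gene's difference was centred on its neighbours within 5 Mb, 403 genes rose and 437 fell. Losses numbered 16 in the hepatic list and 6 in the secretory list, as before. Other lists changed either way, with 9 losses in place of 11 among epithelial genes, 13 in place of 15 among chemokines and cytokines, 4 in place of 2 among HOX genes and cofactors and 3 in place of 1 in the WNT list.

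**Figure D5:**
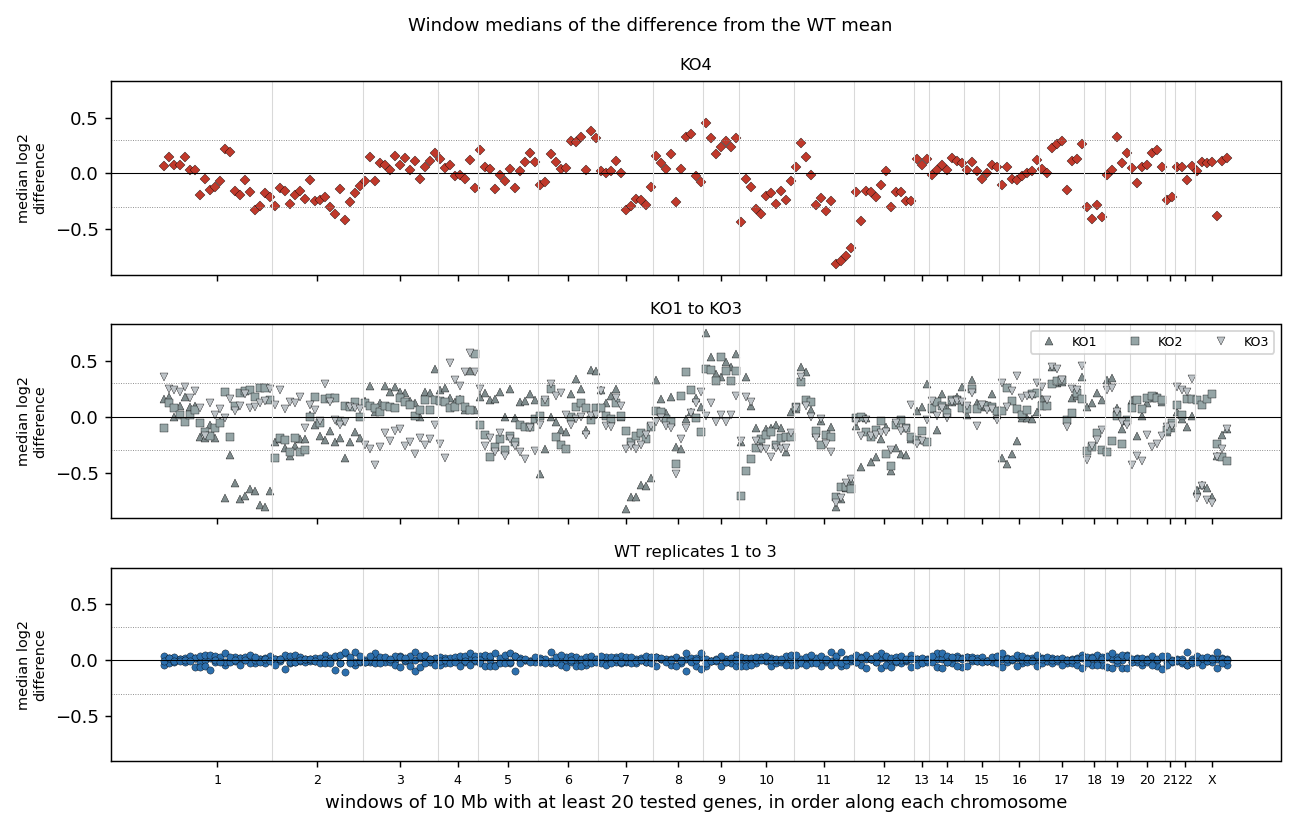
Median log2 difference from the WT mean in windows of 10 Mb along the chromosomes, for KO4 (top), the other clones (middle) and the WT replicates (bottom), with dotted lines at 0.3 and -0.3. KO4 windows run from -0.81 to 0.45 and the lowest lie on chromosome 11, where the other clones are low too. WT windows stay between -0.11 and 0.07.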

How the data were processed

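Per the labels, the libraries were made with a TruSeq RNA kit from column-purified, DNase-treated RNA. The authors deposited 1 table of log2 RPKM for 13142 genes in the 7 libraries. The tools in the submitters' processing notes are edgeR, HTSeq (0.11.2), STAR (2.5.3a) and Trim Galore (0.4.1), and the build is hg38. Annotation, prior count and strand setting are not given in the sources used here. Depth is unknown, because the values carry no read totals, and no counting interval is given.

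KO4 was compared with WT in limma 3.58.1 (R 4.3.3), with moderated, trended variances, Benjamini-Hochberg adjustment over 11342 genes and no further scaling. The spread came from WT, and p-values measure only that spread. The other clones were compared with WT in the same way, and KO4 with the other clones using their own spread. The fits were also run on simulated data in which KO4 and WT shared a spread set from the WT libraries. That run cannot test whether a clone varies more than WT replicates do. Positions came from GENCODE 29, which matched 95.4% of genes. Named were ASH1L, the 15 largest called differences per direction whose higher group reached a level of 1, up to 12 each way not called in other clones, up to 6 abundant ones (7 or more) per direction, and list members that were called or among the 6 with the smallest p. The 15 per direction also had to have KO4 outside the WT range. The members and 43 lists were chosen with earlier results of these data known. Some genes that this rule names are not reported here.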

Additional observations from a re-analysis of the deposited data

Results flagged for a closer look

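For 9 of the named genes KO4 differed from WT in one direction and KO1, KO2 and KO3 all lay beyond the WT range in the other. KO4 exceeded the mean of the other clones by 1.19 log2 units for ASH1L, 3.93 for AIM2, 4.25 for DES, 1.99 for SLC12A8, 2.41 for LAPTM5 and 3.78 for PLAT. It differed from them by -5.04 for LSR, -1.79 for CXCL5 and -1.86 for CLDN1. Unadjusted p-values in limma ran from 0.00122 (SLC12A8) to 0.0322 (DES), and the adjusted p was 1 for each, so the differences between clones did not pass the correction. All but ASH1L had been chosen for lying apart from the other clones. Over all called genes, 10 higher and 6 lower had this pattern.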

How the results depend on the processing

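No paired analysis was possible because KO4 has 1 library and shares fewer than 2 replicate numbers with WT. Against 422 genes higher and 504 lower in KO4, the spread of all 7 libraries gave 0 and 0, log2(RPKM + 1) gave 201 and 302, and dropping the fold minimum gave 1308 and 1647. No filter gave 645 higher and 701 lower. Leaving out a WT replicate gave 371 to 448 higher and 488 to 565 lower. Without the filter clause for KO4, 37.5% of calls were higher, against 45.6%. Of the 926 called genes, 899 were called after quantile normalization, 883 with library medians set equal, and 744 of the 866 that could be position-centred.

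Changes that other clones lack were 24 higher and 15 lower. The higher count was 13 without the clause for KO4 and 0 with the spread of all 7 libraries. The lower count was 23 with no filter, 9 with a filter at 1, 40 after quantile normalization, 5 with log2(RPKM + 1) and 0 with the spread of all 7 libraries. Without a WT replicate they were 23 to 26 higher and 14 to 16 lower. KO4 against the other clones gave 0 genes in every setting run, which leaves out those without a WT replicate, since WT does not enter that fit. The ASH1L difference of 0.45 passed when the fold minimum was dropped, and it was 0.42 to 0.48 without a WT replicate. None of the up to 58 genes recomputed in each setting (ASH1L, the largest, the abundant and the clone-lacking differences) changed sign. The difference itself cannot change in settings that altered only the filter, the spread, the variance trend or the fold minimum. With the spread of all 7 libraries 57 of the 58 were no longer called, and ASH1L had not been called. Other list members were not followed through every setting. The causes of these shifts were not tested beyond the change each setting makes. Unknown depth limits the low-level genes most.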
